A study of Homo sapiens with 12 samples.

Results

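HEK293 cells, an established human line derived from embryonic kidney, were transfected with the same set of 4 plasmids under 3 replicate numbers, and the 4 libraries that carry number 3 were compared with the 4 that carry replicate number 1. The comparison covered 8 of the 12 libraries of the series and all 17176 genes that passed the filter on low counts, and asked how far the transcriptome of the cells under one replicate number differed from that under another with the same plasmids. The cells were wild type (WT) in every library. Each side held 1 library of cells given LifeAct-Dendra2, a fluorescent actin probe that served as control plasmid, 1 with PEG10 gag-pol, 1 with PEG10 gag and 1 with PEG10 NC, the nucleocapsid fragment of gag. PEG10 is a gene domesticated from a retrotransposon, and gag-pol is read from it by a ribosomal frameshift. All libraries came from poly(A) RNA taken 48 hr after transfection. No cells without a plasmid were part of the design, so each value describes transfected cells.

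The replicate number was taken as 1 passage and harvest of the line, which the labels do not state: dates and passage numbers of single libraries are not given in the sources used here, and the study's methods name harvest date as a variable of the design. On that reading each side was 1 passage, and its 4 libraries were transfections with different plasmids. The p-values below therefore measure the spread among transfections, not among passages. Passage, day of harvest and any handling shared by the libraries of 1 number cannot be told apart. The 8 libraries held between 30625725 and 45316749 counts, with ranges that overlapped between the sides (exact permutation test, 4 against 4, two-sided, p = 0.4; the smallest p this design allows is 0.0286). After the mean of each construct was removed, the libraries of replicate 1 correlated with each other across genes at r of 0.46 to 0.54 and those of replicate 3 at 0.32 to 0.47. Normalized counts are given below in the order control, gag-pol, gag and NC, and a log2 fold change is replicate 3 over replicate 1, with libraries paired by construct.

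A cell line is kept by repeated dilution and regrowth, and its cells meet a new dish, a new batch of medium and a new density at each passage. Several transcriptional programmes are known to respond to culture conditions. NF-kB, a family of transcription factors held in the cytoplasm by IkB proteins, switches on cytokines and its own inhibitors. ATF4 drives the genes of amino acid synthesis, transport and tRNA charging when amino acids run short or the endoplasmic reticulum is stressed. NRF2 drives the antioxidant enzymes, and NFAT5 the transporters that bring compatible osmolytes into the cell.

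Of the 17176 genes tested, 7149 (41.6%) differed between the sides in edgeR's quasi-likelihood test at an adjusted p below 0.05, 3540 of them (20.6%) higher and 3609 (21.0%) lower in replicate 3. These shares are the background for every count below. Most differences were small: the median size of a called difference was 0.44 on the log2 scale, 574 genes were at least 2-fold higher and 301 at least 2-fold lower. In 2450 genes (14.3%) the lowest library of replicate 3 lay above the highest of replicate 1, and in 2332 (13.6%) the reverse held. The median over all genes tested was -0.01. The direction was the same in all 4 construct pairs for 6642 of the 7149 called genes. The calls rest on these same pairs, so this count is no separate evidence. Of all 17176 genes tested, 4393 were higher and 4518 lower in all 4 pairs.

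Genes of inflammatory signalling stood among the 15 largest rises. SLC6A12 (log2 fold change 3.75), a transporter of betaine and GABA, came first and is described with the osmolyte genes. It was followed by the growth factor FGF17 (3.12), the cytokine TNF (3.01), the monocyte chemokine CCL2 (3.00), RANBP3L (2.68), the extracellular protein MMRN2 (2.49) and the neutrophil chemokine CXCL8 (2.46). The other 8 were KCNQ1OT1 (2.37), FRMD1 (2.32), LOC100190986 (2.23), the keratin KRT75 (2.23), C1QTNF4 (2.13), the myosin MYH15 (2.12), LINC00202-1 (2.11) and the NADPH oxidase DUOX2 (2.03). KCNQ1OT1 lost its call without control replicate 1 (adjusted p = 0.057), and LINC00202-1 lost it when control replicate 1, gag-pol replicate 1, gag replicate 1 or NC replicate 3 was left out (adjusted p = 0.054 to 0.072). KCNQ1OT1 lies antisense within KCNQ1, and the strand setting of the counting is not given in the sources used here, so its reads cannot be told apart from those of its host, and those of CEP83-AS1 below from those of CEP83.

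FGF17, a member of the FGF8 family, counted 73.7, 20.1, 6.04 and 14.4 in replicate 1 and 526, 108, 224 and 93.7 in replicate 3. The control library of replicate 3 was the highest, and the sides did not overlap (log2 fold change 3.12, SE 0.31, adjusted p = 1.4e-07). RANBP3L, a nuclear export factor, counted 106, 25.2, 111 and 56.4 in replicate 1 and 773, 262, 611 and 268 in replicate 3. Again the control and gag libraries of replicate 3 stood above those of gag-pol and NC, and every library of replicate 3 was above every one of replicate 1 (log2 fold change 2.68, SE 0.21, adjusted p = 8.8e-09). Whether the difference depends on this split of the constructs was tested for every gene. In the main fit SLC6A12 alone was called, as described with the osmolyte genes.

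The falls were smaller. SKOR2, a transcriptional corepressor of the developing cerebellum, fell most, and CPLX2, a complexin that clamps vesicle fusion, came next. SKOR2 counted 160, 189, 255 and 147 in replicate 1 and 38.7, 22.4, 65.9 and 18.7 in replicate 3 (log2 fold change -2.45, SE 0.26, adjusted p = 2e-07). CPLX2 counted 217, 320, 307 and 332 in replicate 1 and 103, 80.8, 88.5 and 82.6 in replicate 3 (log2 fold change -1.73, SE 0.18, adjusted p = 2e-07). Neither gene's sides overlapped. A change in the same direction in all 4 pairs was a condition for a place among the largest rises and falls. The other 13 were the zinc finger genes ZNF93 (-1.71) and ZNF610 (-1.59), SDSL (-1.70), GGACT (-1.68), the secretory granule proteins CHGB (-1.68) and SCG3 (-1.65), LOC257396 (-1.68), the RNA-binding protein CELF6 (-1.67), LOC101927021 (-1.64), the tRNA-processing enzyme ELAC1 (-1.58), ACCS (-1.56), the immediate early factor EGR1 (-1.53) and CEP83-AS1 (-1.48). EGR1 overlapped between the sides, with 2164, 6426, 8603 and 1446 in replicate 1 and 1812, 1059, 2001 and 656 in replicate 3, and lost its call without gag-pol replicate 1 (adjusted p = 0.056), gag replicate 1 (0.068) or gag replicate 3 (0.072), and in a fit of the 8 libraries alone (0.11).

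**Figure D1:**
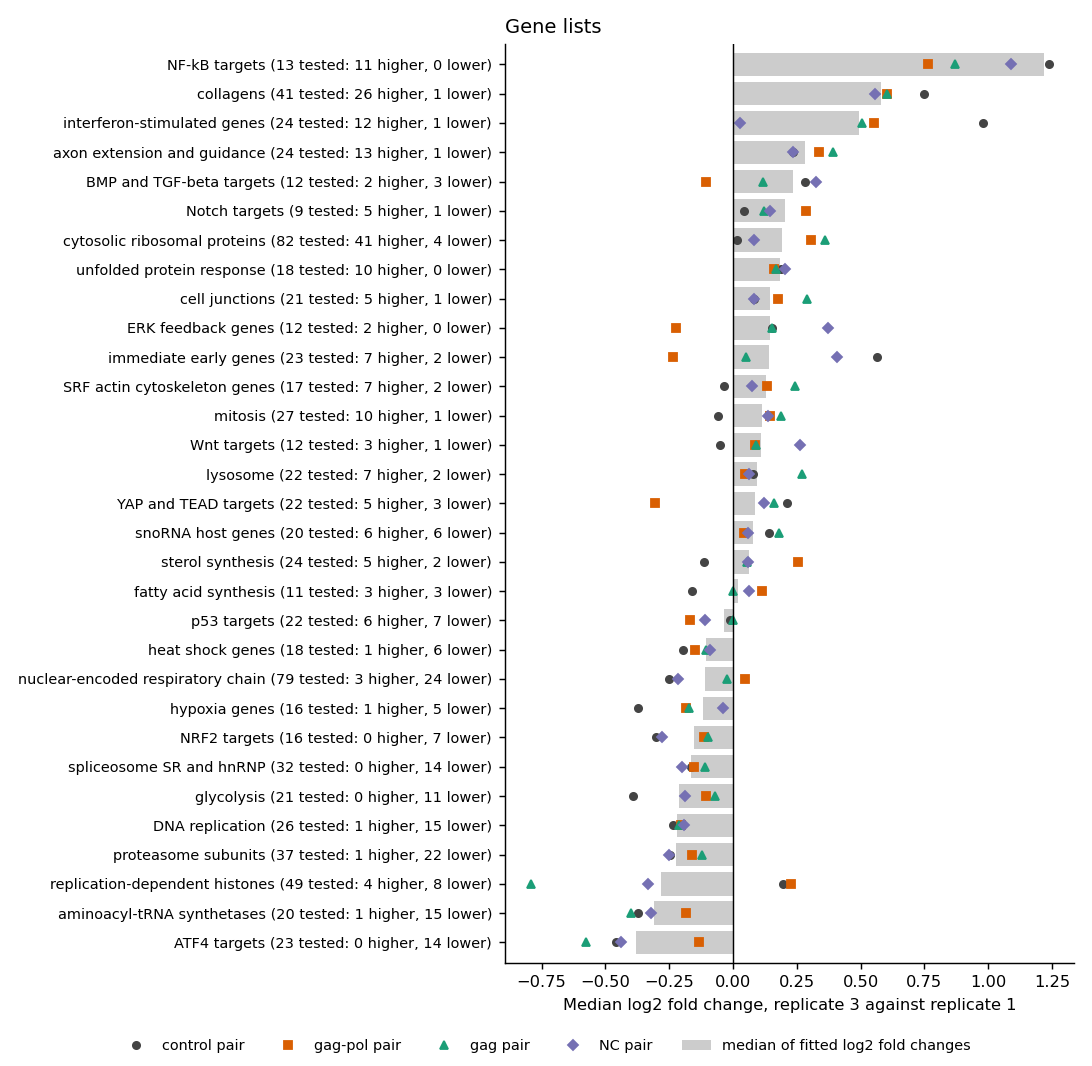
Median log2 fold change of replicate 3 against replicate 1 in each gene list with at least 9 genes tested: grey bars are medians of the fitted values, symbols the medians of the normalized counts of each construct pair, and the labels give the genes tested and called. NF-kB targets stand highest at 1.22 and ATF4 targets lowest at -0.38.

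Genes named beyond the 15 largest rises and falls and the 4 members of each list with the smallest p, and the exceptions within a list, were chosen after their values were seen.

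Of 34 gene lists looked at, that of NF-kB targets had the highest median. Of its 13 genes tested, 11 rose and none fell, beside 20.6% of all genes that rose. The median log2 fold change was 1.22 beside -0.01 over all genes, and in 9 of the 13 genes the sides did not overlap. The median of the 13 was 1.24 in the control pair, 0.77 in gag-pol, 0.87 in gag and 1.09 in NC, so it was raised under every plasmid.

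TNF, the founding cytokine of its family (chromosome 6 from 31575565 to 31578336 of GRCh38), counted 39.4, 51.4, 59.2 and 33.8 in replicate 1 and 474, 238, 613 and 225 in replicate 3. Its mean rose from 46.0 ± 11.5 to 388 ± 189 (SD, n = 4), and the lowest library of replicate 3 was above the highest of replicate 1 (edgeR log2 fold change 3.01, SE 0.24, adjusted p = 1.3e-08). CCL2 counted 59.2, 12.1, 31.4 and 12.3 in replicate 1 and 329, 120, 305 and 109 in replicate 3. The gag-pol and NC libraries were the lower ones on both sides, and the sides did not overlap (log2 fold change 3.00, SE 0.30, adjusted p = 1.2e-07). CXCL8 counted 35.3, 65.5, 89.5 and 57.4 in replicate 1 and 344, 267, 609 and 180 in replicate 3 (log2 fold change 2.46, SE 0.26, adjusted p = 1e-06). All 3 mRNAs were rare in replicate 1, and CXCL8 in the gag library, at 89.5, was the highest of these values.

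The inhibitors of the pathway, which NF-kB itself induces, were abundant and rose as well. NFKBIA, which encodes IkB alpha, counted 1639, 2780, 2170 and 1434 in replicate 1 and 7491, 4726, 8357 and 3832 in replicate 3 (log2 fold change 1.59, SE 0.25, adjusted p = 0.0023). TNFAIP3, the ubiquitin-editing enzyme A20, counted 522, 864, 1152 and 439 in replicate 1 and 1619, 1574, 2106 and 1286 in replicate 3 (log2 fold change 1.22, SE 0.15, adjusted p = 4e-05). Control and gag had the highest NFKBIA counts in replicate 3, and neither gene's sides overlapped. BIRC3, an inhibitor of apoptosis, rose with a log2 fold change of 0.95, SE 0.20, adjusted p = 0.00047.

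The subunits of the noncanonical branch rose with the smallest errors of the list. NFKB2 counted 3562, 3421, 4457 and 3276 in replicate 1 and 6828, 6482, 7727 and 5764 in replicate 3 (log2 fold change 0.87, SE 0.06, adjusted p = 2e-09). RELB counted 566, 787, 1104 and 786 in replicate 1 and 1320, 2006, 2014 and 1673 in replicate 3 (log2 fold change 1.13, SE 0.09, adjusted p = 4e-09). In both, every library of replicate 3 was above every library of replicate 1. Among 13 genes of NF-kB subunits and inhibitors, a list added after the values were seen, 8 rose and none fell. They included NFKB1 (0.33) and REL (0.61), whereas the 5 others ran from -0.20 (NFKBIZ) to 0.07 (RELA) and did not pass the test. This list shares members with that of the targets, NFKBIA among them, so its count is not separate from theirs. With the trend on GC content and coding length described below removed, 7 rose and 2 fell.

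Other targets rose less evenly. CXCL1, a neutrophil chemokine, counted 11.4, 74.5, 81.0 and 39.99 in replicate 1 and 169, 106, 104 and 77.1 in replicate 3, with the control pair apart from the rest (log2 fold change 1.24, SE 0.41, adjusted p = 0.027). The adhesion receptor ICAM1 counted 20.8, 21.2, 14.5 and 6.15 in replicate 1 and 35.5, 34.4, 34.0 and 56.2 in replicate 3 (log2 fold change 1.41, SE 0.46, adjusted p = 0.016). Both were rare, and CXCL1 overlapped between the sides. CXCL1 lost its call in a fit of the 8 libraries alone (1.22, adjusted p = 0.12) and without control replicate 1 (0.73, 0.053), control replicate 3 (0.77, 0.053) or NC replicate 1 (1.24, 0.070). ICAM1 lost it without gag replicate 1 (1.33, 0.052), NC replicate 1 (1.08, 0.084) or NC replicate 3 (0.91, 0.12). IRF1, which counted 470, 631, 537 and 458 in replicate 1 and 610, 645, 724 and 583 in replicate 3, overlapped between the sides (log2 fold change 0.30, SE 0.11, adjusted p = 0.034). CXCL2 (0.28) and NFKBIE (-0.15) did not pass the test. IER3, an immediate early gene outside the list, counted 786, 1084, 1216 and 594 in replicate 1 and 3253, 1851, 3239 and 1386 in replicate 3 (log2 fold change 1.37, SE 0.17, adjusted p = 0.00016).

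**Figure D2:**
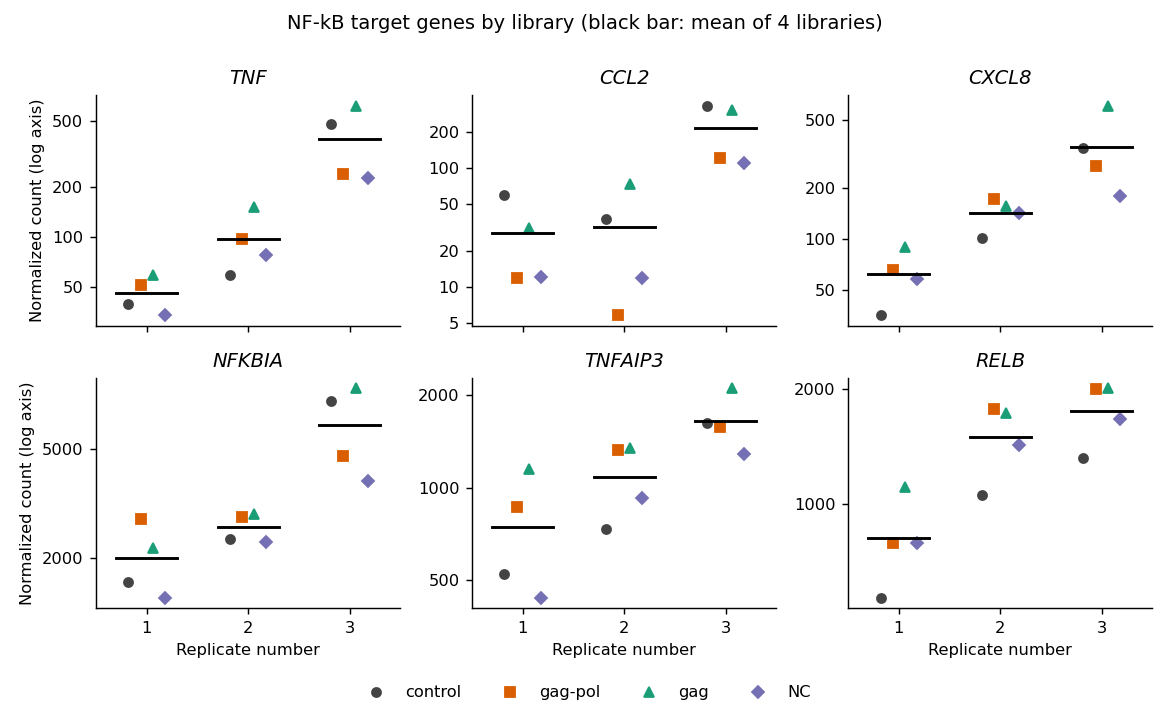
Normalized count (log axis) of 6 NF-kB target genes in each of the 12 libraries, by replicate number, with a symbol for each construct and a black bar at the mean of 4 libraries. In all 6 genes the 4 libraries of replicate 3 sit above the 4 of replicate 1, and the mean of replicate 2 lies between the other 2 means, nearer to that of replicate 3 for RELB and to that of replicate 1 for the other 5.

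Many promoters of the list hold a sequence of the kind that NF-kB binds. Those of 6 called members with a match are shown so that the site can be seen beside the values. Each run is the 200 bases before the start of transcription in RefSeq (GRCh38.p14), 5′ to 3′ on the strand of the gene. Capitals mark matches, on either strand, to the kappa B consensus or to the CXCL8-type site GGAATTTCC, and matches that overlap run together. The windows are chr14:35404750-35404949 on the reverse strand for NFKBIA, chr6:137867059-137867258 for TNFAIP3, chr4:73740369-73740568 for CXCL8, chr4:73869193-73869392 for CXCL1, chr10:102395505-102395704 for the second listed start of NFKB2 and chr11:102317284-102317483 for BIRC3, the last 5 on the forward strand.
NFKBIA: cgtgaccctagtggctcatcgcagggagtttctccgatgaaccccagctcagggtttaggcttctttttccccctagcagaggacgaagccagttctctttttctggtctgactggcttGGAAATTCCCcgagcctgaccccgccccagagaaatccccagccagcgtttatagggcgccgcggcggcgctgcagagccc
TNFAIP3: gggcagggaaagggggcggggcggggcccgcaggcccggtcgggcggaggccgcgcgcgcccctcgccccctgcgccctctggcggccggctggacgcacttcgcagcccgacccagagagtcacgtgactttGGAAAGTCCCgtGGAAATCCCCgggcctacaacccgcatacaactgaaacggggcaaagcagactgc
CXCL8: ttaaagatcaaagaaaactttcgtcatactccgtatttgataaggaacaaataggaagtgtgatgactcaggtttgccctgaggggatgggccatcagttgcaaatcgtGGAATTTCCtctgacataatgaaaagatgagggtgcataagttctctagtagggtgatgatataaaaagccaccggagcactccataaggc
CXCL1: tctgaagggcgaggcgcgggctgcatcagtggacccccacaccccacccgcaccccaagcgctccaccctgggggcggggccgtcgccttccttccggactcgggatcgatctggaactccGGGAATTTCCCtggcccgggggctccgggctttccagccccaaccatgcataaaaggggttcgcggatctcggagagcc
NFKB2: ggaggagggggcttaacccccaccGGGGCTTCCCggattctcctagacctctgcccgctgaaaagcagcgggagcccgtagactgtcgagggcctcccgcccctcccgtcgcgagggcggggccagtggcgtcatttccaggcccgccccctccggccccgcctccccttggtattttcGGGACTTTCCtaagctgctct
BIRC3: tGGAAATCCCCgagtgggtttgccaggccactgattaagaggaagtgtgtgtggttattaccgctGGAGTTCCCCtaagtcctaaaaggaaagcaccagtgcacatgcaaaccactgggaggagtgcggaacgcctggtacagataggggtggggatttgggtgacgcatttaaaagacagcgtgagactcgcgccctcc
The consensus was found in 8 of 12 promoters of the list (66.7%) and in 1755 of the 17506 promoters of tested genes. GGAATTTCC was found in 5 of the 12 (41.7%) and in 0.32% of the promoters of tested genes. The 12 are promoters of tested members, called or not, and NFKB2 counts once for each listed start. No match to either motif was found within the window for TNF, CCL2 or RELB, which also rose. TNFAIP3, BIRC3 and this start of NFKB2 hold 2 consensus matches each. CXCL1 holds matches to both motifs that overlap. A match is a string of letters and says nothing of binding in these cells. The list was made of known targets, so its high share goes with that choice and says nothing of the difference between replicates.

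Of 24 interferon-stimulated genes tested, 12 rose and 1 fell, with a median of 0.49. IFITM1, a membrane protein that blocks virus entry, counted 397, 310, 296 and 405 in replicate 1 and 962, 907, 1063 and 895 in replicate 3 (log2 fold change 1.45, SE 0.12, adjusted p = 6.6e-09). The lowest library of replicate 3 was more than double the highest of replicate 1. OAS3, an enzyme that double-stranded RNA activates, counted 220, 253, 254 and 285 in replicate 1 and 722, 475, 849 and 437 in replicate 3 (log2 fold change 1.25, SE 0.16, adjusted p = 2.3e-06). IRF9, the DNA-binding subunit of the interferon-activated complex, counted 536, 357, 534 and 550 in replicate 1 and 1501, 688, 1078 and 816 in replicate 3 (log2 fold change 1.00, SE 0.17, adjusted p = 0.00027). Control and gag were the highest libraries of replicate 3 for OAS3 and IRF9, as for NFKBIA, but none of these genes was called in the test of that split of constructs.

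The rise did not cover the whole list. IFI6 counted 415, 347, 380 and 443 in replicate 1 and 1715, 660, 1417 and 623 in replicate 3 (log2 fold change 1.36, SE 0.23, adjusted p = 0.0012), and IFI27 rose by 1.13 (adjusted p = 5.9e-05) with sides that overlapped. MX2 had the largest value in the list (log2 fold change 3.00, SE 0.69, adjusted p = 0.0013), from counts of 4.15, 4.03, 0 and 2.05 in replicate 1 and 28.0, 17.2, 25.7 and 16.5 in replicate 3. IFIT1, a classic early interferon gene, was at 0.33 (adjusted p = 0.13), although it passed without gag-pol replicate 3 (0.032) or NC replicate 1 (0.027) and with the trend on GC content and coding length described below removed (0.047). MX1, OASL and RSAD2 did not pass. Without control replicate 3, 3 genes of the list fell. USP18, which damps the interferon receptor, fell by 0.31. The median of the 24 genes ran across the pairs from 0.98 in control and 0.55 in gag-pol to 0.51 in gag and 0.03 in NC. IFI6, MX2 and IFIT1 were named after their values were seen.

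Many interferon-stimulated promoters carry the interferon-stimulated response element, shown here for OAS3 and IFI27 as TTTCNNTTTC on either strand, in capitals. The windows are chr12:112938274-112938473 and chr14:94110536-94110735, both on the forward strand of GRCh38.p14 in RefSeq.
OAS3: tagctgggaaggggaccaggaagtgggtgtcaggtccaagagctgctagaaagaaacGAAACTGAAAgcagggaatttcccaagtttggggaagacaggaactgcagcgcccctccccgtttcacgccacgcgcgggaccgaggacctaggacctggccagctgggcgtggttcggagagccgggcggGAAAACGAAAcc
IFI27: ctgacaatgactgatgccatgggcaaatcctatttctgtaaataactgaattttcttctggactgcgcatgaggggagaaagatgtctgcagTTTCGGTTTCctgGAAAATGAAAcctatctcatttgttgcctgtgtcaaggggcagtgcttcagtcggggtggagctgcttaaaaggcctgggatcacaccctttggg
The element was found in 18 of 22 promoters of the list (81.8%) and in 1.95% of the promoters of tested genes. In OAS3 and IFI27 it occurs 2 times each. The share covers members called or not in a list of known interferon-stimulated genes, so it says nothing of the difference between replicates.

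Genes of class I antigen presentation, chosen as a list after their values were seen, also stood higher. Of 13 tested, 10 rose and none fell, with a median of 0.59. B2M, the light chain of every class I molecule, counted 5982, 4300, 4593 and 5445 in replicate 1 and 9271, 7679, 8659 and 7575 in replicate 3 (log2 fold change 0.72, SE 0.08, adjusted p = 2.3e-07). HLA-B counted 5060, 4203, 4089 and 4742 in replicate 1 and 8000, 7183, 7409 and 7357 in replicate 3 (log2 fold change 0.73, SE 0.07, adjusted p = 2.6e-08), and TAPBP, which loads peptides, had a log2 fold change of 0.71, SE 0.07, adjusted p = 6.5e-08. None of the 3 overlapped between the sides, and all 4 pairs rose. HLA-C, HLA-E and HLA-F rose by 0.38 to 0.63, but reads of these near-identical genes may have been split by the counting. TAP1, a subunit of the peptide transporter, rose by 0.47.

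Blood cell markers were looked at beside these immune genes. PTPRC was at 0 in every library of replicate 1 and at most 6.61 normalized counts in replicate 3, and CD3E and LYZ did not exceed 17.2 in any library. The summed level of the 6 blood markers ran from 62.6 to 151 in replicate 1 and from 171 to 612 in replicate 3, most of it CD14, a coreceptor for lipopolysaccharide. CD14 ran from 58.4 to 117 in replicate 1 and from 156 to 536 in replicate 3 (log2 fold change 1.94, adjusted p = 2.4e-07). Whether the other blood markers have a part in the immune gene values was not tested, and in bulk RNA more cells of a type and more RNA per cell cannot be told apart. Of the 10 markers of HEK293 identity, all of which were detected, 1 was called, INA (-0.47), and their summed level was 32412 to 34771 in replicate 1 and 31154 to 33451 in replicate 3.

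Most of the ATF4 targets tested fell. Of 23 tested, 14 were lower in replicate 3 and none higher, beside 21.0% of all genes that were lower, and the median was -0.38. PCK2, the mitochondrial PEP carboxykinase, counted 2318, 2151, 2579 and 3420 in replicate 1 and 1180, 1284, 943 and 1556 in replicate 3 (log2 fold change -1.08, SE 0.09, adjusted p = 7.2e-09). Every pair fell, and the sides did not overlap. SESN2, a leucine sensor that restrains mTORC1, counted 10557, 8290, 12758 and 7561 in replicate 1 and 7318, 4619, 5797 and 4512 in replicate 3 (log2 fold change -0.81, SE 0.10, adjusted p = 2.3e-05). ALDH1L2, an enzyme of mitochondrial folate metabolism, had a log2 fold change of -0.85, SE 0.12, adjusted p = 8.7e-06, and TRIB3, a pseudokinase that feeds back on ATF4, a log2 fold change of -0.58, SE 0.08, adjusted p = 4.1e-06. CHAC1, which degrades glutathione, had the largest value of the list, with 1032, 1006, 2372 and 971 in replicate 1 and 655, 359, 543 and 391 in replicate 3 (log2 fold change -1.39, SE 0.18, adjusted p = 8.5e-05). The gag library of replicate 1 was far above the rest of its side.

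The 3 enzymes of serine synthesis in the list were lower as well. PSAT1 counted 6131, 6006, 5966 and 7462 in replicate 1 and 3116, 5099, 3025 and 5303 in replicate 3 (log2 fold change -0.67, SE 0.10, adjusted p = 0.00014), PHGDH fell by 0.34 and PSPH by 0.39. The control and gag libraries were the lowest of replicate 3 for PSAT1, which was not called in the test of that split of constructs. ATF4 mRNA itself, at 31619, 35474, 32929 and 30920 in replicate 1 and 36476, 36933, 42774 and 31973 in replicate 3, overlapped between the sides and did not pass the test (log2 fold change 0.18, SE 0.08, adjusted p = 0.072), but did without NC replicate 2 (adjusted p = 0.044) or NC replicate 3 (0.035). DDIT3, which encodes CHOP, did not pass (log2 fold change -0.08, SE 0.07, adjusted p = 0.41). CHAC1, PSAT1, ATF4 and DDIT3 were named after their values were seen. The median of the 23 was -0.46 in the control pair, -0.13 in gag-pol, -0.58 in gag and -0.44 in NC. The promoters of this list were searched as those of the 2 lists above, for the motif TGATGNAA. It was found in 1 of 30 promoters of the list (3.33%) and in 1.45% of the promoters of tested genes.

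**Figure D3:**
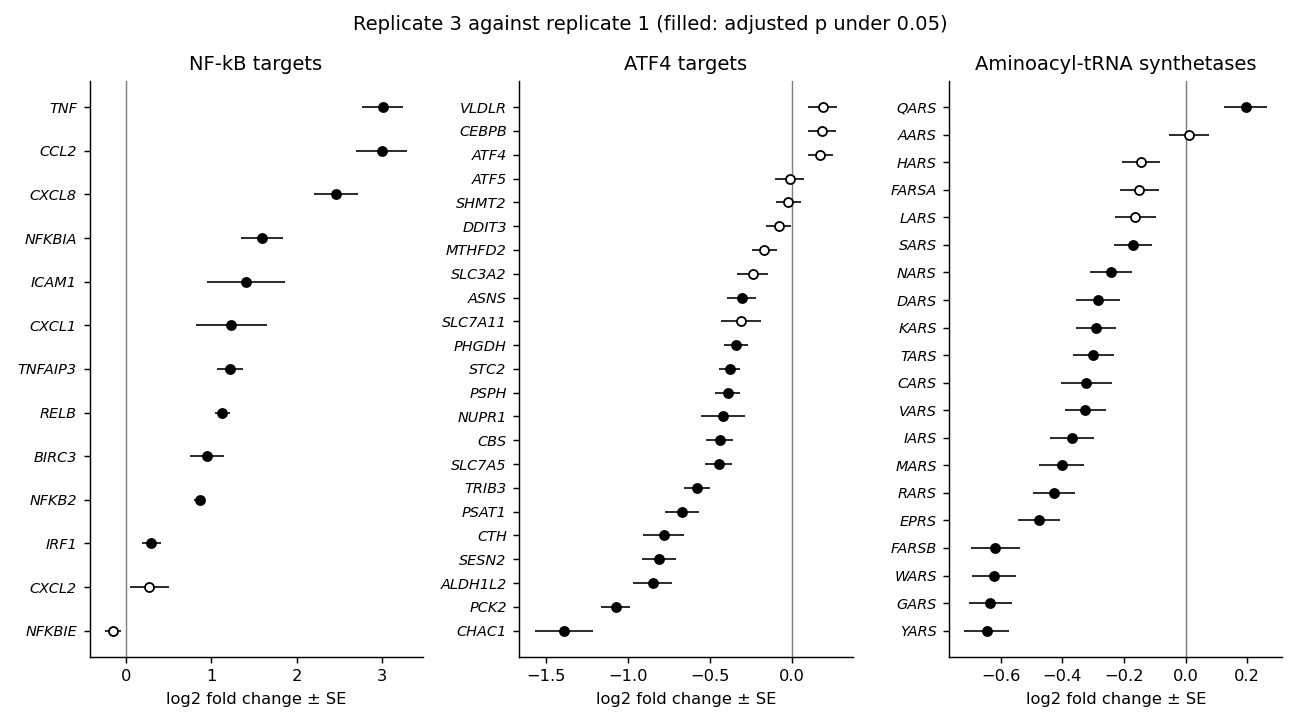
Fitted log2 fold change of replicate 3 against replicate 1 with its standard error for each tested gene of 3 lists, with filled symbols for an adjusted p below 0.05. Of the 13 NF-kB targets 11 are filled and right of 0, and 14 of 23 ATF4 targets and 15 of 20 aminoacyl-tRNA synthetases are filled and left of 0.

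The cytoplasmic aminoacyl-tRNA synthetases, which charge tRNAs and many of which are ATF4 targets, were mostly lower as well. Of 20 tested, 15 were lower, 1 was higher and the median was -0.31, and in 16 the sides did not overlap (13.6% of all genes were apart in this direction). YARS counted 16238, 15652, 17548 and 19723 in replicate 1 and 10709, 11940, 9536 and 12050 in replicate 3 (log2 fold change -0.65, SE 0.07, adjusted p = 4.4e-07). GARS counted 10794, 9052, 11161 and 10920 in replicate 1 and 7200, 6740, 6204 and 6846 in replicate 3 (log2 fold change -0.63, SE 0.07, adjusted p = 3.5e-07). WARS (log2 fold change -0.62, SE 0.07, adjusted p = 6e-07) and FARSB (log2 fold change -0.62, SE 0.08, adjusted p = 2.2e-06) were close to them. QARS was the 1 that rose (0.20), and AARS (0.01), FARSA (-0.15), HARS (-0.14) and LARS (-0.16) did not pass the test.

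Chaperones of the endoplasmic reticulum, which lie on other branches of the same stress network, went the opposite way by a smaller amount. Of 18 genes of the unfolded protein response 10 rose and none fell, with a median of 0.19. HSPA5, the chaperone BiP, counted 8821, 10653, 10046 and 9334 in replicate 1 and 11764, 12967, 12721 and 13517 in replicate 3 (log2 fold change 0.39, SE 0.07, adjusted p = 7.3e-05), HSP90B1 rose by 0.38 (adjusted p = 8.8e-05) and HYOU1 by 0.31 (adjusted p = 0.00036). The next was the cochaperone DNAJB11 (0.26). The count of 10 depended on single libraries: leaving out NC replicate 1 gave 4, gag-pol replicate 1 gave 5 and NC replicate 3 gave 6.

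Most antioxidant, glycolytic and heat shock genes that passed the test were lower. Of 16 NRF2 targets 7 fell and none rose (median -0.15). HMOX1, the haem oxygenase, counted 502, 606, 1169 and 457 in replicate 1 and 300, 227, 371 and 252 in replicate 3 (log2 fold change -1.18, SE 0.14, adjusted p = 1.2e-06). NQO1, a quinone reductase, was much rarer, at 79.9, 86.6, 75.0 and 51.3 in replicate 1 and 26.9, 30.1, 28.8 and 33.1 in replicate 3 (log2 fold change -1.30, SE 0.31, adjusted p = 0.002). Both were apart between the sides, and GCLM (-0.42) fell less. Of 18 heat shock genes 6 fell and 1 rose (median -0.10), with HSPA1B at a log2 fold change of -1.06, SE 0.11, adjusted p = 4e-06 and its near-identical neighbour HSPA1A at -0.99, whose reads the counting may have shared. CHORDC1 (-0.39) and the mitochondrial chaperonin HSPD1 (-0.44) fell less. HSPA1B counted 24841, 61929, 52728 and 28832 in replicate 1 and 13441, 25515, 19395 and 19004 in replicate 3, so each pair fell although the sides overlapped.

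Of 21 glycolytic genes 11 fell and none rose (median -0.21), among them the phosphofructokinase PFKL (log2 fold change -0.42, SE 0.07, adjusted p = 4e-05), the hexokinase HK2 (log2 fold change -0.42, SE 0.08, adjusted p = 0.00012) and TPI1 (-0.31). The count was 7 without control replicate 1 and also without control replicate 3. LDHA counted 21009, 21109, 15951 and 22624 in replicate 1 and 10082, 19225, 12175 and 17319 in replicate 3 (log2 fold change -0.48, SE 0.12, adjusted p = 0.0049). Of 16 hypoxia genes 5 fell and 1 rose, with the largest falls in PDK1 (log2 fold change -0.84, SE 0.09, adjusted p = 3.3e-07) and DDIT4 (log2 fold change -0.74, SE 0.07, adjusted p = 1.1e-07). BNIP3 fell by 0.35, and P4HA2 was the 1 that rose (0.43). Of 79 nuclear-encoded subunits of the respiratory chain 24 fell and 3 rose (median -0.11), with ATP5F1 (-0.41), NDUFV3 (-0.38) and NDUFA5 (-0.35) among those that fell. Without NC replicate 3, 15 fell. With the trend on GC content and coding length described below removed, 16 fell and 7 rose, NDUFA5 not passing the test (-0.16, adjusted p = 0.065), and 3 hypoxia genes rose.

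The share of genes that rose went up with coding length. Over the 14876 protein-coding genes tested, 86.6% of all, the share called higher increased with coding length, from 13.3% of the 1119 genes under 500 bases to 35.8% of the 1512 genes of 3000 to 5000 bases and 73.1% of the 108 genes of 10000 bases or more. The share called lower went from 24.5% to 13.4% and 1.85%. The median log2 fold change of the 108 longest was 0.97. These 108 genes took 0.716%, 0.635%, 0.696% and 0.817% of all counts in replicate 1 and 1.5%, 1.25%, 1.46% and 1.67% in replicate 3, so the sides did not overlap (exact permutation test, 4 against 4, two-sided, p = 0.0286). Replicate 2 had 1.47%, 1.5%, 1.53% and 1.06%, all above replicate 1.

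Examples, chosen after their values were seen, were AHNAK, a giant scaffold protein with a coding length of 17670 bases, the histone methyltransferase KMT2D, and the proliferation antigen MKI67 (9768 bases). AHNAK counted 1647, 1599, 1312 and 2050 in replicate 1 and 5346, 6351, 5918 and 9115 in replicate 3 (log2 fold change 2.01, SE 0.19, adjusted p = 0.00012). KMT2D counted 8883, 7319, 9258 and 9165 in replicate 1 and 30445, 25170, 36460 and 35847 in replicate 3 (log2 fold change 1.88, SE 0.22, adjusted p = 0.00052). Neither overlapped, and all 4 pairs rose. MKI67 counted 18822, 20564, 20758 and 21819 in replicate 1 and 57668, 56115, 57635 and 77553 in replicate 3 (adjusted p = 9.7e-05).

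GC content moved with the difference too. Of the 3327 genes with the lowest GC content 14.2% rose and 30.8% fell, with a median of -0.11. Of the 3321 with the highest, 31.6% rose and 364 genes fell, with a median of 0.14. Across genes, the log2 fold change correlated with GC content at a Spearman's rho of 0.235 and with coding length at 0.16 over the 14876 coding genes, which share the same 8 libraries. The source of these trends was not tested. A smooth trend on GC content and coding length was then removed from each library, an alternative added after the data were seen. That fit covered the 14876 protein-coding genes alone, and 6496 of them (43.7%) were called, beside 41.6% of 17176 in the main fit. Of the 6496, 5124 were among the 7149, which include genes that this fit left out. NF-kB targets then had 11 of 13 higher and 1 lower, interferon-stimulated genes 12 and 1 of 24, ATF4 targets 1 higher and 12 lower, and aminoacyl-tRNA synthetases 0 higher and 11 lower.

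**Figure D4:**
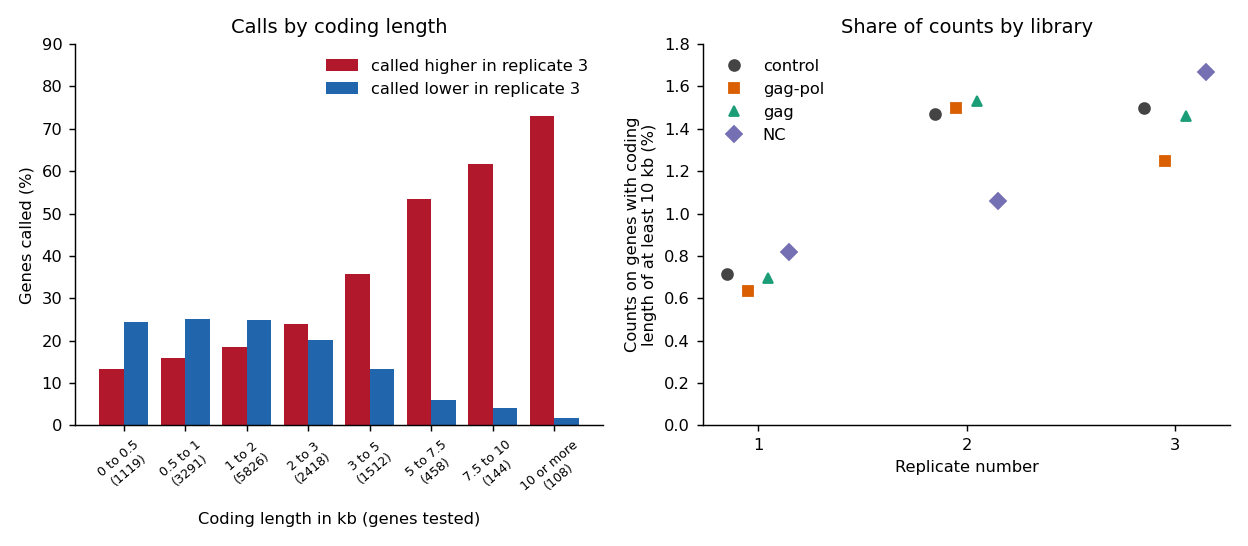
Left, percent of tested protein-coding genes called higher (red) or lower (blue) in replicate 3 by coding length in kb, with the number of genes under each bin. Right, percent of each library's counts on the 108 genes with a coding length of at least 10 kb, by replicate number, where the 4 libraries of replicate 1 reach at most 0.817% and the others start at 1.06%.

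Matrix genes, many of them long, were higher. Of 41 collagen genes, with a median coding length of 4491 bases, 26 rose and 1 fell, and the median was 0.58. In 17 the sides did not overlap, beside 14.3% of all genes apart in this direction. COL6A2, a chain of beaded filaments, counted 3315, 3416, 2559 and 3597 in replicate 1 and 6344, 6848, 5601 and 7293 in replicate 3 (log2 fold change 1.02, SE 0.06, adjusted p = 2e-10). COL14A1 counted 2926, 2832, 2263 and 3323 in replicate 1 and 6327, 5525, 5729 and 5866 in replicate 3 (log2 fold change 1.06, SE 0.07, adjusted p = 1.2e-09). COL4A2 (0.56) and COL6A1 (0.58) rose less. COL5A3 was the 1 that fell (-0.68), and COL1A2 (-0.12) and COL5A2 (-0.27) did not pass the test. With the trend on GC content and coding length removed, 21 rose and 2 fell.

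Fibroblast markers were set beside the collagens. COL3A1 rose from 56.1, 37.3, 29.0 and 20.5 to 376, 57.6, 172 and 67.2 (log2 fold change 2.00, SE 0.36, adjusted p = 0.00027), whereas DCN did not exceed 3.44 and LUM 8.30 in any of the 8 libraries and PDGFRA was at 88.6 to 94.5 in replicate 1 and 41.2 to 74.9 in replicate 3. The summed level of the 5 fibroblast markers was 928 to 1189 in replicate 1 and 1063 to 2046 in replicate 3. Most of it was COL1A1, at 809 to 1060 in replicate 1 and 914 to 1611 in replicate 3 (edgeR log2 fold change 0.20, adjusted p = 0.23). COL1A1 and COL3A1 are collagens themselves, so the sum is no separate measure of fibroblasts. Whether fibroblasts have a part in the collagen values was not tested.

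Laminins and integrins, a list chosen after the values were seen with a median coding length of 3508.5 bases, gave 19 higher and none lower of 36 (median 0.35). ITGA7, a laminin receptor, counted 1456, 1181, 1167 and 1393 in replicate 1 and 2522, 2229, 2296 and 2400 in replicate 3 (log2 fold change 0.86, SE 0.08, adjusted p = 2.3e-08). LAMB2 rose by 0.79 and LAMA5 by 0.93, but LAMA5 was at 0.11 (adjusted p = 0.18) once the trend on GC content and coding length was removed, where 14 of the list rose and 1 fell. Among 24 genes of axon extension and guidance, with a median coding length of 2814 bases, 13 rose and 1 fell (median 0.28), including the ligand SLIT2 (log2 fold change 0.54, SE 0.06, adjusted p = 9.3e-07) and the receptors PLXNA1 (0.60), NRP1 (0.52) and NRP2 (0.67). With the trend removed 9 rose and 2 fell. Of 9 Notch genes 5 rose and 1 fell, led by the receptors NOTCH3 (log2 fold change 1.10, SE 0.07, adjusted p = 3.8e-10) and NOTCH1 (0.66) and the target HES4 (0.44), with HEYL as the 1 that fell (-0.61), and 2 rose and 2 fell with the trend removed, NOTCH1 then being at 0.07 (adjusted p = 0.44) and HES4 at 0.08 (adjusted p = 0.32). Without control replicate 1, and also without gag-pol replicate 3, 3 rose.

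Genes of DNA replication that passed the test were mostly lower and those of mitosis mostly higher. Of 26 genes of DNA replication 15 fell and 1 rose, with a median of -0.22. In 10 every library of replicate 3 was below every one of replicate 1, and in 1 above. CHAF1B, a chromatin assembly factor, counted 4370, 5205, 4853 and 4856 in replicate 1 and 2600, 3702, 2669 and 3312 in replicate 3 (log2 fold change -0.66, SE 0.07, adjusted p = 2.3e-07). MCM5 (log2 fold change -0.54, SE 0.08, adjusted p = 6.9e-06) and MCM2 (log2 fold change -0.45, SE 0.07, adjusted p = 1.1e-05), both subunits of the replicative helicase, fell with it. Of 27 mitotic genes 10 rose and 1 fell (median 0.11), and 3 fell without gag-pol replicate 3. With a trend on GC content and exon length removed 18 rose and 1 fell, and with one on GC content and coding length 14 rose and 2 fell. The largest rises were in long genes, CENPF (1.01, coding length 9342 bases) and ASPM (0.80, 10653 bases), although CENPE, at 8103 bases, was at 0.11 and did not pass the test. AURKB, a kinase with a coding length of 1035 bases, rose by 0.47 (adjusted p = 1.2e-05), whereas HMMR fell by 0.52. The core regulators CDK1 (0.01), CCNB1 (-0.07) and PLK1 (0.04) did not pass the test. MYC counted 12867, 16669, 16080 and 14804 in replicate 1 and 4613, 10738, 7247 and 8780 in replicate 3 (log2 fold change -0.99, SE 0.14, adjusted p = 0.00022), and CDKN1A, the p21 inhibitor of cyclin-dependent kinases, 2175, 2603, 3626 and 2520 in replicate 1 and 4481, 4422, 6049 and 3960 in replicate 3 (log2 fold change 0.80, SE 0.08, adjusted p = 1.5e-07). Of 22 p53 targets as a whole 6 rose and 7 fell, the next by p being BBC3 (0.62), AEN (-0.42) and PHLDA3 (-0.48).

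Ribosomal protein and proteasome genes, short and coordinately expressed, that passed the test were mostly higher and mostly lower, respectively. Of 82 ribosomal protein genes 41 rose and 4 fell (median 0.19), among them RPL39 (log2 fold change 0.42, SE 0.08, adjusted p = 0.0003). The pair medians were 0.01 in control, 0.31 in gag-pol, 0.36 in gag and 0.08 in NC, and the count of 41 was 14 without gag replicate 1, 15 without gag replicate 3, 21 without gag-pol replicate 3 or NC replicate 1, and 22 without gag-pol replicate 1. With the trend on GC content and coding length removed it was 65, and 3 fell. RPS27 (0.36) and RPLP2 (0.33) rose less. Of 37 proteasome genes 22 fell and 1 rose (median -0.22), led by PSMD8 (log2 fold change -0.54, SE 0.06, adjusted p = 1.1e-06), PSMD14 (-0.41), PSMA3 (-0.41) and PSMB1 (-0.33). Fewer fell without control replicate 1 (14), without NC replicate 3 (14) and with the trend on GC content and coding length removed (9). Of 32 SR and hnRNP splicing factors 14 fell and none rose, led by SRSF7 (-0.43), HNRNPD (-0.37), HNRNPA2B1 (-0.36) and SRSF6 (-0.33). With that trend removed 5 fell and 3 rose.

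Genes for compatible osmolytes and their regulator NFAT5 were set together after SLC6A12 was found to lead the rises. Of 6 tested, 5 rose and none fell. SLC5A3, the myo-inositol transporter, counted 2000, 1788, 1662 and 2226 in replicate 1 and 5853, 5439, 5396 and 6689 in replicate 3 (log2 fold change 1.61, SE 0.10, adjusted p = 2.1e-08). NFAT5, the transcription factor that hypertonicity activates, counted 2363, 2552, 2320 and 2342 in replicate 1 and 5383, 3907, 6191 and 5962 in replicate 3 (log2 fold change 1.16, SE 0.22, adjusted p = 0.0049). The taurine transporter SLC6A6 (log2 fold change 0.78, SE 0.07, adjusted p = 2.4e-08) and the amino acid transporter SLC38A2 (log2 fold change 0.71, SE 0.09, adjusted p = 1.5e-05) rose as well. All 4 were apart between the sides. AKR1B1, which makes sorbitol, was at 4791, 4580, 3725 and 5276 in replicate 1 and 5052, 3872, 4250 and 3649 in replicate 3 and did not pass the test (log2 fold change -0.12, SE 0.10, adjusted p = 0.37).

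SLC6A12 (chromosome 12 from 190077 to 214570) counted 91.3, 51.4, 73.7 and 35.9 in replicate 1, 96.7, 68.3, 85.3 and 51.2 in replicate 2 and 3626, 142, 1591 and 132 in replicate 3. The control and gag libraries of replicate 3 stood far above all others, and gag-pol and NC rose much less (log2 fold change 3.75, SE 0.89, adjusted p = 0.016). Leaving out 1 library ended the call without control replicate 1 (adjusted p = 0.070), gag replicate 1 (0.067) or gag replicate 3 (0.059), and so did a fit of the 8 libraries of replicates 1 and 3 alone (0.055). In the test of whether the difference depends on the construct pair, the rise was smaller in gag-pol and NC than in gag and control by 3.26 on the log2 scale (0.35 SE, adjusted p = 0.00029). It was the 1 gene of 17176 called in that test (0.00582%), with 1094 genes at an unadjusted p under 0.05, 3 called by DESeq2 and 0 by edgeR without gag-pol replicate 1.

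**Figure D5:**
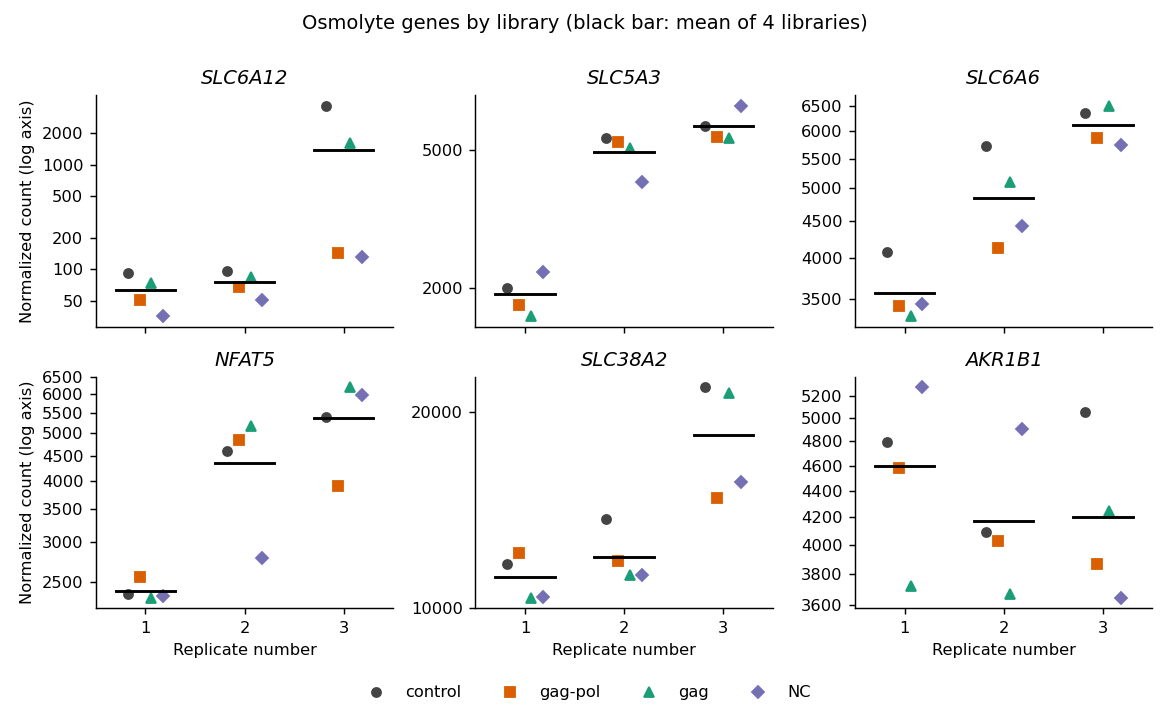
Normalized count (log axis) of 6 osmolyte genes in each of the 12 libraries, by replicate number, with a symbol for each construct and a black bar at the mean of 4 libraries. In SLC6A12 the control and gag libraries of replicate 3 reach 3626 and 1591 while gag-pol and NC are at 142 and 132, whereas SLC5A3 rises in all 4 and AKR1B1 overlaps.

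Many zinc finger genes fell. Of 452 tested genes with a ZNF symbol, a list chosen after the values were seen, 229 fell and 44 rose, beside 21.0% and 20.6% of all genes, and the median was -0.35. In 156 every library of replicate 3 was below every one of replicate 1. ZNF334 counted 1012, 1143, 1255 and 1246 in replicate 1 and 453, 445, 354 and 462 in replicate 3 (log2 fold change -1.44, SE 0.10, adjusted p = 1.2e-09), and ZNF260 counted 2590, 2291, 3130 and 2674 in replicate 1 and 1535, 1280, 1448 and 1593 in replicate 3 (log2 fold change -0.86, SE 0.08, adjusted p = 2.2e-08). Both were chosen after their values were seen. These genes have a low median GC content, 44.1%, and with the trend on GC content and coding length removed 209 still fell and 38 rose.

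Of 6 granin genes, which encode the cargo of neuroendocrine granules, 3 fell and 1 rose. CHGB counted 365, 219, 508 and 395 in replicate 1 and 169, 43.8, 197 and 81.5 in replicate 3 (log2 fold change -1.68, SE 0.23, adjusted p = 2.3e-05). SCG3 overlapped between the sides, with 210, 106, 266 and 249 in replicate 1 and 149, 20.6, 78.2 and 56.2 in replicate 3 (log2 fold change -1.65, SE 0.25, adjusted p = 2e-05), and CHGA fell by 1.20. SCG5, the chaperone 7B2, was the 1 that rose, from 49.8, 43.3, 27.8 and 26.7 to 190, 103, 145 and 121 (log2 fold change 1.90, SE 0.25, adjusted p = 3.6e-06). This list was chosen after the values were seen.

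A metabolic gene, OXCT1, and a signalling gene, IRS4, were lower with small errors. OXCT1, which activates ketone bodies for oxidation, counted 3097, 3195, 3597 and 3910 in replicate 1 and 1622, 1333, 1744 and 1475 in replicate 3 (log2 fold change -1.16, SE 0.08, adjusted p = 1.2e-09). IRS4, an insulin receptor substrate that HEK293 cells express highly, counted 23536, 34399, 25758 and 34148 in replicate 1 and 9712, 20003, 12280 and 18756 in replicate 3 (log2 fold change -0.99, SE 0.08, adjusted p = 1.5e-08). Both were named after their values were seen, and neither overlapped between the sides. Sterol and fatty acid genes were split, with 5 higher and 2 lower of 24 sterol genes and 3 higher and 3 lower of 11 fatty acid genes. Among the sterol genes, SREBF2, a master regulator of the pathway, rose by 0.37 and SC5D by 0.32. Without control replicate 3, 9 sterol genes rose, and without gag-pol replicate 3, 4 fell. With the trend on GC content and coding length removed 8 rose and 1 fell. Among the fatty acid genes, ME1 (-0.26) and ACSS2 (-0.32) were lower, and FASN (0.27) and ACACA (0.21) were higher. With that trend removed FASN was lower (-0.35, adjusted p = 0.00045), ACACA (-0.13, 0.088) and ME1 (-0.08, 0.32) did not pass the test, and 1 gene rose. ACSS2 lost its call without control replicate 1, control replicate 3, gag-pol replicate 1, gag replicate 3 or NC replicate 1 (adjusted p = 0.052 to 0.10). Only 1 fatty acid gene fell without gag-pol replicate 1, gag replicate 3 or NC replicate 1.

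Other lists had fewer or mixed changes. Of 23 immediate early genes 7 rose and 2 fell, with NR4A2 (0.65), IER3 (1.37), MYC (-0.99) and ZFP36 (0.62) foremost by p. The 7 became 12 without gag-pol replicate 1 or 3, and the 2 became 5 without control replicate 3 and 4 without NC replicate 1 or 2. Of 17 genes of the actin cytoskeleton that SRF controls 7 rose and 2 fell, led by TAGLN, which counted 84.1, 71.5, 97.9 and 79.0 in replicate 1 and 225, 137, 314 and 215 in replicate 3 (log2 fold change 1.38, SE 0.19, adjusted p = 4e-06), and TPM2 (0.88). ACTA2 (-0.66) fell and CNN2 (0.31) rose. In this list 3 rose without gag-pol replicate 1, gag replicate 1 or gag replicate 3, and 4 without gag-pol replicate 3, NC replicate 1 or NC replicate 3, while 5 fell with the trend on GC content and coding length removed. Of 22 lysosomal genes 7 rose and 2 fell, with CTSB (0.46), PSAP (0.47) and NPC1 (0.33) among them. Of 21 genes of cell junctions 5 rose and 1 fell, with DSP (0.75), GJC1 (0.49), DSC2 (0.59) and JUP (0.41) foremost, and of 22 YAP and TEAD targets 5 rose and 3 fell, with PTPN14 (0.72), CRIM1 (0.66), AMOTL2 (-0.70) and FOXF2 (0.36) foremost. Without gag-pol replicate 1, 1 of these targets fell, and with that trend removed 3 rose and 4 fell. Of 49 replication-dependent histone genes, whose mRNAs mostly lack the poly(A) tail that was selected, 4 rose and 8 fell. The 8 became 3 when gag replicate 3 was left out, 5 when gag replicate 1 was, and 4 when gag-pol replicate 1, NC replicate 1 or NC replicate 3 was, the last of which left 2 that rose.

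The share of counts on PEG10 overlapped between the sides. PEG10, which the 3 PEG10 plasmids encode, took 0.0346% of counts in control 1, 7.35% in gag-pol 1, 5.93% in gag 1 and 0.303% in NC 1. In replicate 3 the shares were 0.0230%, 2.80%, 6.10% and 0.389%, with ranges that overlapped those of replicate 1 (exact permutation test, 4 against 4, two-sided, p = 0.743). The fitted difference was -0.32 ± 0.33 (SE, adjusted p = 0.50). TXNIP (log2 fold change -0.18, SE 0.09, adjusted p = 0.11) and DCLK1 (log2 fold change -0.05, SE 0.10, adjusted p = 0.75) overlapped between the sides as well.

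Called genes lay on every chromosome, with 39.1% of genes called on chromosome 3 and 53.7% on chromosome 21 at the extremes of the autosomes and X. On chromosome 21, 49 of 162 genes rose and 38 fell, and on chromosome 19, which holds many zinc finger genes, 341 of 1231 rose and 255 fell. With the trend on GC content and coding length removed, which keeps protein-coding genes only, the balance on chromosome 19 turned, with 233 higher and 309 lower, and on chromosome 21 it was 47 and 35.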

How the data were processed

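Poly(A) RNA of 12 libraries of transfected HEK293 cells was sequenced as read pairs on a NovaSeq. The authors mapped reads to GRCh38.p13 with STAR 2.7.3, sorted them with SAMtools 1.8 and deposited raw counts per gene from featureCounts, for 26485 symbols of which 3535 had no count. The annotation release, strand setting and handling of reads with several positions are not given in the sources used here.

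Counts were tested with edgeR 4.0.16 in a quasi-likelihood fit (robust, TMM normalization, genes filtered by construct at a minimum count of 10 and minimum total of 15). All 12 libraries entered, with construct and replicate number as terms, and the contrast was replicate 3 minus replicate 1. Replicate 2 informed the spread alone. P-values were adjusted by Benjamini-Hochberg across the 17176 genes tested, with a threshold of 0.05, and the deposited counts of these genes made up 99.97% of all. To normalize, each count was scaled by its library's TMM-adjusted total and brought to the mean depth. Differences that depend on construct were tested as the contrast in gag-pol and NC minus that in gag and control. Totals per library set counting error only. Simulated counts for this comparison over 16762 genes had the real difference between replicates taken out. In them 97 genes were changed by 1 on the log2 scale and 98 by 0.5. Of these 87.6% and 63.3% were called, with 4 false calls. Far fewer genes differed there than were called in the data, so the 4 give no error rate for the calls above.

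Named were the 15 largest rises and falls of called genes that averaged 1 log2 CPM or more and moved one way in all 4 pairs, the 4 called members of each described list with the smallest p, and PEG10, TXNIP and DCLK1. Members and lists were chosen with earlier results of these data known. Gene positions came from GENCODE release 44 and promoter sequences from RefSeq. Alternatives covered normalization, DESeq2 1.42.0, filters, the libraries used, thinning, and trends on GC content and length. Some genes that the rule names are not reported here.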

Additional observations from a re-analysis of the deposited data

Results flagged for a closer look

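A side was the 4 libraries of 1 replicate number, for 1 gene or for 1 measure of the libraries such as the total count. In 16 of 386 sides looked at, the highest or lowest library lay further from the other 3, relative to the range, than Dixon's 95% critical value for 4 samples. Chance alone flags about 1 in 20 such sides.

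In replicate 1 the gag library was the highest for CHAC1, at 2372 normalized counts against 971 to 1032 in the other 3, and the lowest for HLA-F (1049). The gag-pol library of replicate 1 was the highest for HEYL (603) and the lowest for IRF9 (357) and CELF6 (92.7). The control library of replicate 1 was the highest for MCM2 (15289) and the lowest for PSMA3 (2135). The NC library of replicate 1 was the highest for PSAT1 (7462) and NRP1 (2102).

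In replicate 3 the NC library was the highest for MKI67, at 77553 normalized counts against 56115 to 57668 in the other 3, for LOC100190986 (299) and for ICAM1 (56.2). The control library of replicate 3 was the highest for LAMB2 (9613) and the lowest for ACACA (5908). The gag library was the lowest for ZNF334 (354) and the gag-pol library the lowest for ASPM (7047).

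The difference between replicates 3 and 1 in SLC6A12 depended on the construct pair, by the test of the interaction, with -3.26 on the log2 scale in gag-pol and NC relative to gag and control (edgeR adjusted p = 0.00029).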

How the results depend on the processing

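The number of genes called ran from 4997 without a construct term to 7362 over the settings of normalization, tool, filter and libraries, and from 5626 to 7616 when 1 library was left out. With a log2 fold change of at least 0.5 required it was 3049, of which 1579 higher and 1470 lower. The interaction with construct pair was called for 5 genes in the 8 libraries alone, 24 without a filter, 3 by DESeq2, and 0 to 5 when 1 library was left out, 0 of them without gag-pol replicate 1 (SLC6A12 adjusted p = 0.052). With the trend on GC content and coding length removed, 6496 of the 14876 protein-coding genes in that fit were called (43.7%), 5124 of them shared. Of the named genes, 134 values lost the call, 9 gained it and 5482 kept direction and side. The direction turned for FASN at -0.0467 (trend on GC content and exon length) and -0.348 (GC content and coding length), and in the latter for ACACA at -0.129 and DCLK1 at 0.103. It turned for DCLK1 at 0.0704 without the control pair, for PEG10 at 0.0467 without the gag-pol pair and for AKR1B1 at 0.0171 without the NC pair. Without 1 library DCLK1 ran from -0.125 to 0.0776 (without control replicate 3), and AKR1B1 from -0.205 to 0.00162 (without NC replicate 3). The cause was not tested. No paired analysis was possible with the replicate number as a block because the replicate number is itself the contrast, so libraries were paired by construct. The smallest library held 30625725 counts, and precision is limited by 1 passage a side.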
